A study of Xenopus laevis with 8 samples.

Results

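Potassium channels and the related HCN channels were followed here as a gene family in tadpole brains with reduced *neurod2*. The members were all genes of the count table whose symbol starts with kcn and a further letter, or with hcn and a digit, which gave 160 of 41881 genes. Of these, 133 had enough reads to be tested, among 25171 genes tested in all. Both sets of animals were *Xenopus laevis* siblings of a single sibship, raised to Nieuwkoop and Faber (NF) stage 47 after injection as fertilised eggs. The CRISPants received Cas9 loaded with a sgRNA against both homeologues of *neurod2*, a proneural transcription factor, and the controls received Cas9 alone. CRISPants are F0 animals, so each brain is a mosaic of edited and unedited cells. Each of the 8 libraries held the pooled RNA of 4 whole brains, with 4 CRISPant pools (3, 4, 7 and 9) and 4 control pools (1, 2, 4 and 5).

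Potassium channels let K+ leave the cell, which returns the membrane to rest after a spike and sets how readily a neuron fires again. Voltage-gated Kv channels open on depolarisation, and the KCNQ channels among them carry the slow M-current that restrains repeated firing. Calcium-activated (BK and SK) and sodium-activated channels open after activity, inward rectifiers (Kir) and two-pore (K2P) channels work near rest, and HCN channels pass a depolarising current when the membrane is hyperpolarised. Loss or gain of function in several of these genes causes epilepsy in humans, and the study models a human epileptic encephalopathy in tadpoles. *X. laevis* is allotetraploid, so most channel genes are present as an L and an S homeologue, which were counted separately.

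The CRISPant pools held between 18945762 and 25509904 reads assigned to genes, and the control pools between 20985937 and 25937707. *neurod2.L* was at 28.5, 31.1, 26.2 and 18.98 CPM (counts scaled to library size) in CRISPant pools 3, 4, 7 and 9, against 36.9, 37.1, 38.6 and 32.9 CPM in control pools 1, 2, 4 and 5, with all CRISPant pools under the lowest control (log2 fold change -0.47, edgeR adjusted p = 0.0075). *neurod2.S* was at 39.0, 45.7, 35.0 and 26.7 CPM in CRISPant pools and at 52.2, 48.2, 45.4 and 40.3 CPM in control pools, where the groups overlapped (edgeR adjusted p = 0.11). As whole brain, the pools held high levels of the neuronal genes *snap25.L* (438 CPM in CRISPants, 506 CPM in controls) and *stmn2.L* (332 and 337 CPM). Rod opsin, *rho.L* and *rho.S*, had 2 counts each over all pools, but other photoreceptor genes were detected. The 8 photoreceptor genes tested summed to 18.04 to 23.2 CPM in CRISPant pools and 11.3 to 21.8 CPM in control pools. Levels are CPM normalised by TMM and are not corrected for transcript length, so they are compared between groups of pools and not between genes.

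In CRISPant brains 32 of the 133 channel genes tested were lower and 7 were higher, and 94 did not pass the test (edgeR quasi-likelihood test with Benjamini-Hochberg adjustment over all genes, adjusted p under 0.05). Among channel genes 29.3% passed, against 42.4% of all genes tested. Lower genes made up 24.1% of the channel genes and 20.8% of all genes, while higher genes made up 5.26% of the channel genes and 21.7% of all genes. The median log2 fold change was -0.07 over the channel genes, against -0.00 over all genes. Changes were small, and 34 of the 39 called genes changed by less than 1.5-fold. No channel gene passed with a fold change over 2, in edgeR or in DESeq2, although 51 had an unadjusted p under 0.05 in edgeR. Over all genes, 3.58% were called with a change of more than 2-fold. All CRISPant pools lay below all control pools in 28 of 133 channel genes, against 4654 of 25171 genes in all (18.5%). They lay above all control pools in 9 of 133, against 4872 of 25171 (19.4%). Together 37 of 133 channel genes were without overlap, against 9526 of 25171 (37.8%).

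Summed over the 133 genes, channel transcripts stood at 1855, 1957, 1783 and 1742 CPM in CRISPant pools 3, 4, 7 and 9, against 2005, 2134, 1984 and 2044 CPM in control pools 1, 2, 4 and 5. The sum was below the controls in every CRISPant pool. Decreases added up to -270.0 CPM and increases to 62.3 CPM between the group means. The A-type channel gene *kcnd3.L* accounted for 18.03% of the net difference in reads and the BK channel gene *kcnma1.L* for 9.19%. These were the genes with the largest falls, so leaving them out was bound to narrow the gap. With only *kcnd3.L* left out, the highest CRISPant pool (1886.97 CPM) already met the lowest control pool (1886.93 CPM). Without both genes the sums overlapped slightly, at 1589.6 to 1782 CPM in CRISPant pools and 1778 to 1904 CPM in control pools. In bulk tissue, fewer cells that express a channel cannot be told apart from less RNA per cell.

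**Figure D1:**
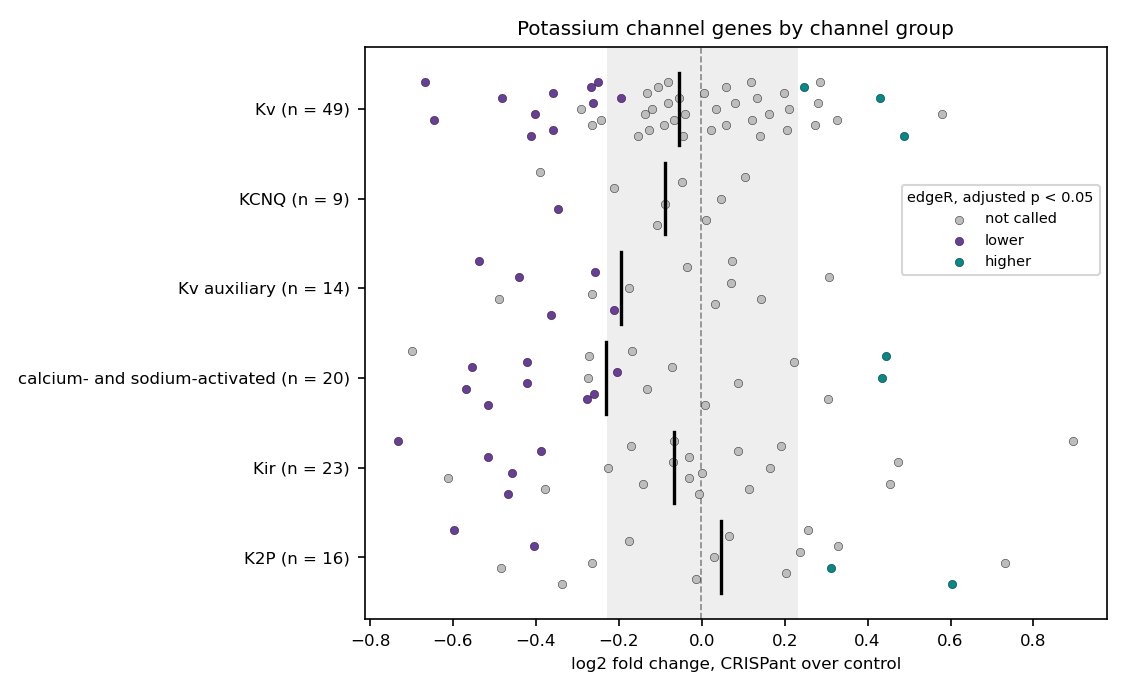
Log2 fold change (CRISPant over control) of each channel gene tested, by channel group, with the HCN group not drawn. Black bars are group medians, the dashed line and grey band are the median and the interquartile range of all 25171 genes tested, and colours give the edgeR call. Lower genes are spread over all the groups drawn, and the 7 higher genes lie in the Kv, calcium- and sodium-activated and K2P groups.

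Calcium- and sodium-activated channels had 8 lower and 2 higher genes among 20 tested (median log2 fold change -0.23). Kv auxiliary subunits had 5 lower genes and none higher among 14 (median -0.19), Kv pore subunits 11 lower and 3 higher among 49 (median -0.06), and Kir channels 5 lower and none higher among 23 (median -0.07). K2P channels had 2 lower and 2 higher among 16 (median 0.05), and KCNQ channels 1 lower and none higher among 9 (median -0.09). For the groups with no higher gene, the number with a positive fold change at an unadjusted p under 0.05 in edgeR was 2 for Kir and 0 for Kv auxiliary and KCNQ, and DESeq2 also called none higher. Called genes made up 50% of calcium- and sodium-activated, 35.7% of Kv auxiliary and 28.6% of Kv pore genes. For K2P, Kir and KCNQ channels the share was 25%, 21.7% and 11.1%, against 42.4% of all genes. Lower genes made up 40%, 35.7%, 22.4%, 12.5%, 21.7% and 11.1% of these groups in the same order, against 20.8% of all genes. Differences between the channel groups were not tested.

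Among Kv channels, 4 of the 6 Kv4 genes tested fell (66.7%, against 20.8% of all genes). These channels carry the fast, inactivating A-type current of dendrites, which delays firing. *kcnd3.L*, at 78646500 to 78888971 of chromosome 2L (assembly v10.1), encodes the pore subunit Kv4.3. It was at 65.9, 69.9, 54.9 and 64.2 CPM in CRISPant pools 3, 4, 7 and 9, against 103, 107, 97.4 and 97.2 CPM in control pools 1, 2, 4 and 5. The groups were well apart, with CRISPant pool 7 lowest of all. The level fell by 37.0%, a log2 fold change of -0.67 ± 0.07 (SE, edgeR adjusted p = 9.7e-08), the smallest p of any channel gene. The less counted homeologue *kcnd3.S* averaged 5.03 ± 0.33 CPM in CRISPant pools and 7.04 ± 1.26 CPM in control pools (SD, n = 4 each), a log2 fold change of -0.48.

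Both homeologues of *kcnd1*, for Kv4.1, fell as well. *kcnd1.L* was at 37.9, 38.6, 35.1 and 31.6 CPM in CRISPant pools 3, 4, 7 and 9, against 47.0, 53.4, 42.8 and 46.2 CPM in control pools 1, 2, 4 and 5 (log2 fold change -0.40, edgeR adjusted p = 2.0e-04). *kcnd1.S* was at 28.6 to 34.0 CPM in CRISPant pools and 36.1 to 41.4 CPM in control pools (log2 fold change -0.36). In neither did the groups overlap. The remaining Kv4 gene, *kcnd2*, did not pass, with log2 fold changes of 0.21 for L (adjusted p = 0.17) and 0.16 for S (adjusted p = 0.27), by edgeR, and whether it differed from *kcnd3* and *kcnd1* was not tested.

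Kv4 channels are assembled with KChIP proteins, calcium-binding subunits that bring them to the surface, and with the dipeptidyl peptidase-like proteins Dpp6 and Dpp10. *kcnip1.L*, for KChIP1, was at 34.7, 35.1, 30.1 and 31.7 CPM in CRISPant pools 3, 4, 7 and 9, against 49.0, 49.7, 49.3 and 42.7 CPM in control pools 1, 2, 4 and 5. All CRISPant pools lay under the lowest control, also beside the low control pool 5. The log2 fold change was -0.54 ± 0.07 (SE, edgeR adjusted p = 3.2e-06), the next smallest p of the channel genes. *kcnip2.S* fell less, to 18.6 ± 0.39 CPM in CRISPants, against 21.5 ± 1.21 CPM in controls (SD, n = 4 each, log2 fold change -0.21). That call was lost without CRISPant pool 3, control pool 1 or control pool 2 (edgeR adjusted p up to 0.076). *kcnip2.L*, *kcnip3.L* and *kcnip4.L* had positive fold changes of 0.07, 0.14 and 0.31 on the log2 scale and did not pass. None of the 4 Dpp genes passed, with log2 fold changes of 0.02 for *dpp6.L*, -0.06 for *dpp6.S*, -0.0045 for *dpp10.L* and -0.09 for *dpp10.S*.

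**Figure D2:**
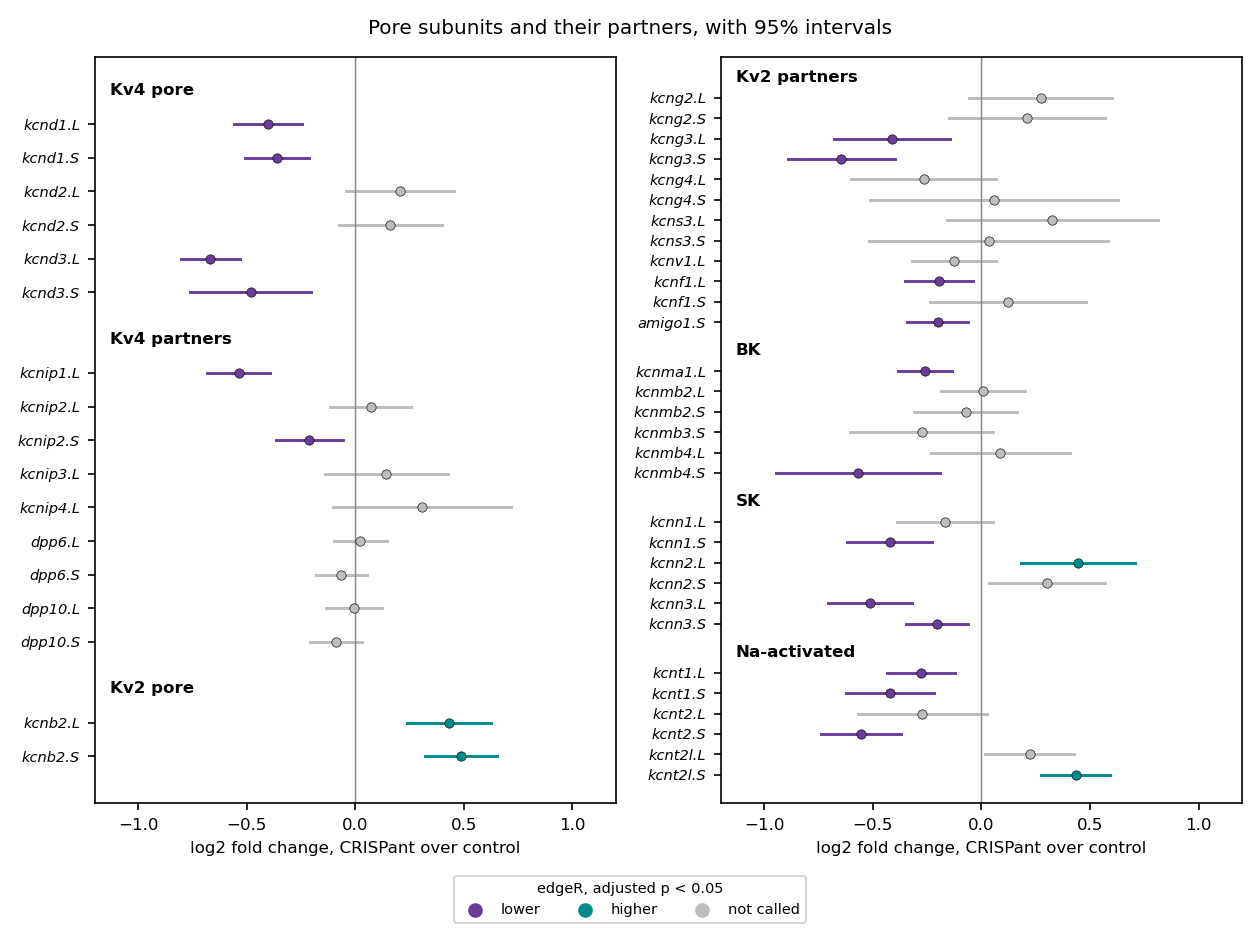
Log2 fold change (CRISPant over control) of pore subunits and their partners, with 95% intervals from edgeR, for Kv4, Kv2, BK, SK and sodium-activated channels. *kcnd1*, *kcnd3* and *kcnip1* lie left of 0 while *kcnd2*, *dpp6* and *dpp10* span it, and *kcnb2* lies right of 0 while *kcng3* lies left of it.

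Kv2 channels are the delayed rectifiers of the neuronal cell body. Of 4 Kv2 genes tested 2 rose (50%, against 21.7% of all genes) and the other 2 did not pass. The rise was in *kcnb2* and was the clearest among the Kv genes. *kcnb2.S*, for Kv2.2, was at 31.1, 36.1, 31.0 and 28.7 CPM in CRISPant pools 3, 4, 7 and 9, against 21.8, 23.5, 21.0 and 24.5 CPM in control pools 1, 2, 4 and 5. All CRISPant pools were higher, a rise by 40.2% (log2 fold change 0.49 ± 0.08 SE, edgeR adjusted p = 4.8e-05). *kcnb2.L* also rose (0.43 on the log2 scale), at 13.7 to 17.2 CPM in CRISPant pools and 10.5 to 11.8 CPM in control pools.

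Silent Kv subunits form no channel alone and modify Kv2. Of these, *kcng3* (Kv6.3) fell in both homeologues. *kcng3.S* was at 6.82, 6.04, 5.77 and 5.23 CPM in CRISPant pools 3, 4, 7 and 9, against 7.98, 9.69, 10.3 and 9.35 CPM in control pools 1, 2, 4 and 5 (log2 fold change -0.65, edgeR adjusted p = 1.7e-04), with no overlap. *kcng3.L* fell with -0.41, and its groups overlapped because control pool 1 was low at 6.47 CPM. That call was lost without control pool 5 (edgeR adjusted p = 0.0504). *kcnf1.L* (Kv5.1) fell with -0.19, a call lost in 6 of the 8 fits that left out a pool (edgeR adjusted p up to 0.14). *kcnf1.S* (0.12) and the *kcng2*, *kcng4*, *kcns3* and *kcnv1* genes tested did not pass.

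Among the Shaker-type Kv1 genes, which shape axonal spikes, *kcna5.S* fell to 22.1 ± 0.99 CPM in CRISPants, against 26.7 ± 1.31 CPM in controls, and *kcna6.S* to 33.6 ± 2.91 CPM, against 40.4 ± 2.55 CPM (SD, n = 4 each). Their log2 fold changes were -0.27 and -0.26, and the other 11 Kv1 genes tested, those of *kcna1* and *kcna2* included, did not pass. Lower genes made up 15.4% of the Kv1 genes tested, against 20.8% of all genes. The ELK-type gene *kcnh4* fell in both homeologues, with -0.36 for S and -0.25 for L. The L call was lost in 5 of the 8 fits that left out a pool (edgeR adjusted p up to 0.12). Of the 11 *kcnh* genes tested 18.2% were lower, against 20.8% of all genes. *kcnc2.S*, for the Kv3.2 channel of fast-spiking neurons, rose with 0.25 at an edgeR adjusted p of 0.042. The call was lost in DESeq2 and in 6 of the 8 fits that left out a pool (edgeR adjusted p up to 0.17). Its homeologue *kcnc2.L* had -0.04 and did not pass. The ERG gene *kcnh2.L* was at 72.1 to 88.2 CPM in CRISPant pools and 65.4 to 76.8 CPM in control pools, and did not pass (edgeR adjusted p = 0.11).

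The Kvβ proteins are cytoplasmic partners of Kv1 channels, and some of them speed inactivation. Of 6 genes tested, 3 fell (50%, against 20.8% of all genes), 1 in each pair of homeologues. *kcnab1.S* was at 8.83, 9.67, 7.10 and 8.19 CPM in CRISPant pools 3, 4, 7 and 9, against 10.96, 11.8, 11.3 and 11.9 CPM in control pools 1, 2, 4 and 5 (log2 fold change -0.44, edgeR adjusted p = 0.0020). *kcnab2.L* fell with -0.36 and *kcnab3.L* with -0.26. All 3 were without overlap between the groups. Log2 fold changes of their homeologues were 0.07 for *kcnab1.L*, -0.18 for *kcnab2.S* and -0.04 for *kcnab3.S*.

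Among the 9 KCNQ genes tested, 1 fell (11.1%, against 20.8% of all genes) and none rose. Without CRISPant pool 7 or without control pool 2, the number lower was 2. *kcnq3*, a subunit of the M-current channel, did not pass in either homeologue, with log2 fold changes of -0.09 for L and 0.10 for S. *kcnq5*, which contributes to the same current, was at -0.21 for L (edgeR adjusted p = 0.17) and 0.010 for S, and neither passed.

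Of the calcium- and sodium-activated channels, 10 of 20 genes tested were called (50%, against 42.4% of all genes), mostly lower. *kcnma1.L* encodes the BK channel, which ends the spike when voltage and calcium rise together, and lies at 55924227 to 56597476 of chromosome 7L (assembly v10.1). It was at 99.9, 105, 92.1 and 88.3 CPM in CRISPant pools 3, 4, 7 and 9, against 114, 122, 109 and 116 CPM in control pools 1, 2, 4 and 5. The gap between the groups was narrow (105 and 109 CPM), and the level fell by 16.5% (log2 fold change -0.26 ± 0.06 SE, edgeR adjusted p = 0.0014). Of the BK β subunits, which set its calcium sensitivity, *kcnmb4.S* fell to 2.76 ± 0.66 CPM in CRISPants, against 4.11 ± 0.64 CPM in controls (SD, n = 4 each, log2 fold change -0.57). That call was lost without CRISPant pool 9, control pool 2 or control pool 5 (edgeR adjusted p up to 0.0645). The other 4 β subunit genes tested did not pass, so 20% of them all were lower, against 20.8% of all genes.

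SK channels, opened by calcium alone, carry the afterhyperpolarisation between spikes, and they moved in both directions. *kcnn3.L* was at 14.02, 12.7, 12.1 and 11.1 CPM in CRISPant pools 3, 4, 7 and 9, against 16.8, 20.2, 17.4 and 16.7 CPM in control pools 1, 2, 4 and 5 (log2 fold change -0.51, edgeR adjusted p = 1.5e-04). *kcnn1.S* fell with -0.42, at 11.1 to 14.1 CPM in CRISPant pools and 16.2 to 19.3 CPM in control pools. Both were without overlap. *kcnn3.S* fell with -0.20, a call lost without CRISPant pool 3 or 9 or control pool 2 or 4 (edgeR adjusted p up to 0.071). *kcnn2.L* went the other way, at 7.83, 8.33, 6.502 and 7.22 CPM in CRISPant pools 3, 4, 7 and 9, against 5.77, 6.03, 5.62 and 4.51 CPM in control pools 1, 2, 4 and 5. All CRISPant pools were above the controls (log2 fold change 0.44, edgeR adjusted p = 0.0071). *kcnn2.S* had 0.30, with every CRISPant pool above every control pool, and did not pass (edgeR adjusted p = 0.063).

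Sodium-activated channels dampen firing after a train of spikes, and *kcnt1* fell in both homeologues, with log2 fold changes of -0.28 for L and -0.42 for S. *kcnt1.S* was at 12.5, 9.35, 11.6 and 9.91 CPM in CRISPant pools 3, 4, 7 and 9, against 14.4, 14.3, 14.6 and 14.6 CPM in control pools 1, 2, 4 and 5, with the CRISPant pools more widely spread than the control pools. *kcnt2.S*, at 91548744 to 91758185 of chromosome 4S (assembly v10.1), was at 11.4, 12.2, 12.9 and 12.1 CPM in CRISPant pools 3, 4, 7 and 9, against 18.2, 20.2, 17.0 and 16.1 CPM in control pools 1, 2, 4 and 5. The groups were far apart (log2 fold change -0.55 ± 0.09 SE, edgeR adjusted p = 4.3e-05). *kcnt2.L* had -0.27 and did not pass. A gene named as like *kcnt2*, *kcnt2l.S*, rose and was at 34.8, 36.2, 33.3 and 41.1 CPM in CRISPant pools 3, 4, 7 and 9, against 28.0, 28.8, 24.7 and 26.04 CPM in control pools 1, 2, 4 and 5. No pool overlapped (log2 fold change 0.43, edgeR adjusted p = 1.0e-04), and *kcnt2l.L* had 0.22 without passing.

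**Figure D3:**
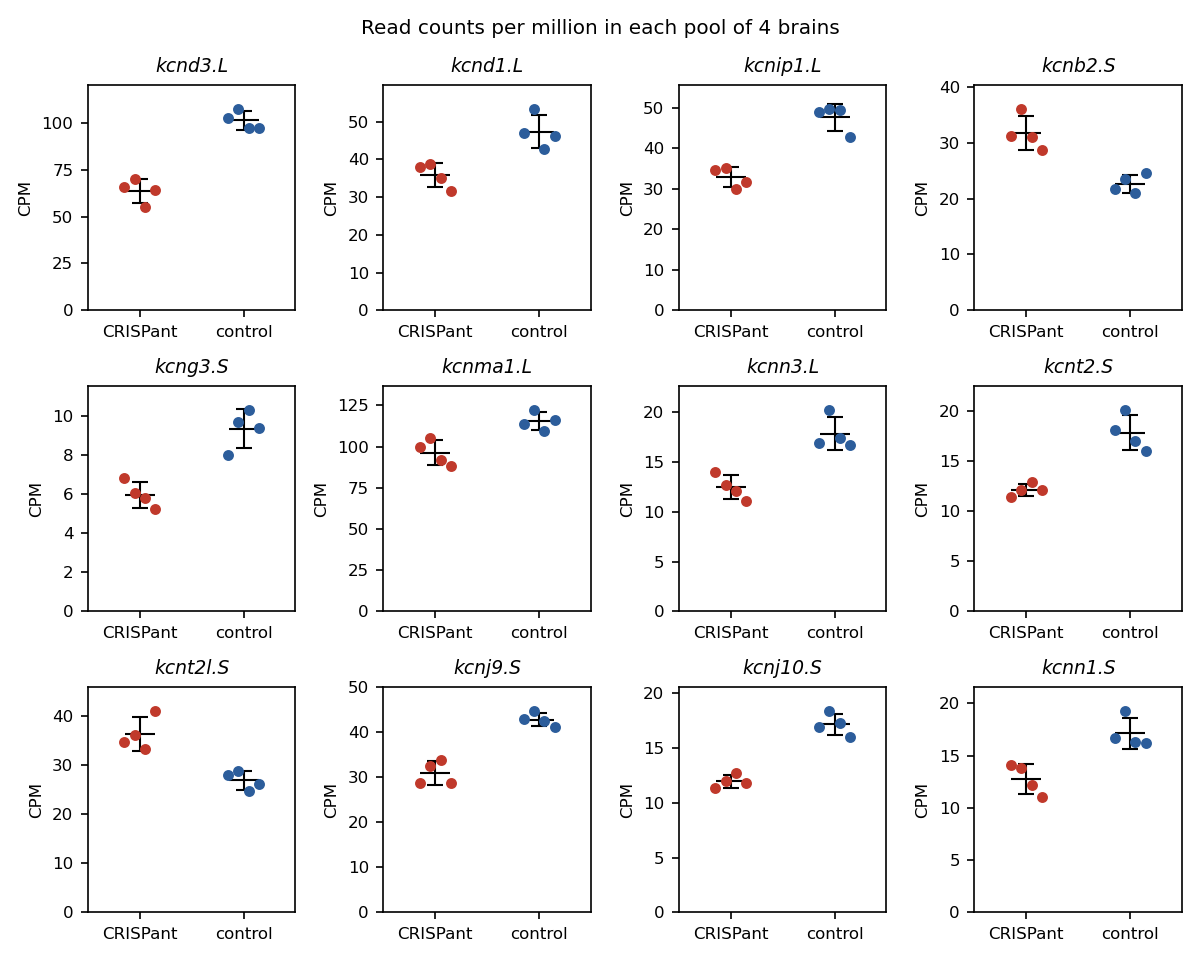
TMM-normalised CPM of 12 channel genes in each of the 8 pools. Points are pools, bars are the mean ± SD of 4 pools, and axes start at 0. *kcnb2.S* and *kcnt2l.S* are higher and the other 10 lower in CRISPants, with no overlap between the groups in any of the 12. The 12 were picked from the called genes, so this does not describe channel genes as a whole. Of the 133 channel genes tested 96 overlapped, and 37.8% of all genes tested were without overlap.

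Inward rectifiers hold the resting potential, and 5 of 23 Kir genes tested fell (21.7%, close to the 20.8% of all genes). *kcnj9*, a subunit of the G protein-gated GIRK channels that mediate slow inhibition, fell in both homeologues. *kcnj9.S* was at 28.8, 32.5, 33.8 and 28.7 CPM in CRISPant pools 3, 4, 7 and 9, against 42.8, 44.8, 42.6 and 41.1 CPM in control pools 1, 2, 4 and 5 (log2 fold change -0.47 ± 0.07 SE, edgeR adjusted p = 1.3e-05), with a wide gap between the groups. *kcnj9.L* was at 30.7 to 37.5 CPM in CRISPant pools and 36.4 to 49.0 CPM in control pools, where control pool 5 was lowest and overlapped (log2 fold change -0.39, edgeR adjusted p = 9.9e-04). The GIRK partner *kcnj3* had -0.03 for L and 0.11 for S, and neither passed. The classical rectifier *kcnj2.L* (Kir2.1) fell with -0.46, and *kcnj2.S* had -0.38 without passing. *kcnj21.L*, a provisional gene near the lower limit of detection at 0.67 ± 0.18 CPM in CRISPants and 1.13 ± 0.08 CPM in controls (SD, n = 4 each), fell with -0.73. That call was lost in DESeq2, with no filter and in 6 of the 8 fits that left out a pool (edgeR adjusted p up to 0.11).

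*kcnj10*, for Kir4.1, through which glia clear K+ from around active neurons, changed in a single homeologue. *kcnj10.S* was at 11.3, 12.0, 12.7 and 11.8 CPM in CRISPant pools 3, 4, 7 and 9, against 16.9, 18.4, 17.3 and 16.03 CPM in control pools 1, 2, 4 and 5. The groups were well separated (log2 fold change -0.52 ± 0.08 SE, edgeR adjusted p = 4.8e-05). *kcnj10.L* was at 20.9, 15.8, 19.9 and 14.95 CPM in CRISPant pools and at 19.4, 17.8, 18.1 and 16.2 CPM in control pools, with a log2 fold change of -0.00 (95% interval -0.21 to 0.21). The other astroglial genes moved in both directions beside it. Of 7 astroglial marker genes tested 71.4% were called, against 42.4% of all genes. Of the 7, 3 fell, among them glutamine synthetase (*glul.L* at -0.89 and *glul.S* at -0.86), and 2 rose, among them *fabp7.L* at 0.43. Their summed level overlapped, at 2740 to 2974 CPM in CRISPant pools and 2591 to 2916 CPM in control pools, and *aqp4* was nearly absent, with 28 counts for L and 68 for S over the 8 pools. The part of glia in the *kcnj10.S* result was not tested.

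Two-pore channels leak K+ at rest, and 4 of 16 K2P genes tested were called (25%, against 42.4% of all genes). *kcnk5.S* (TASK-2) rose to 3.97, 3.43, 4.61 and 5.46 CPM in CRISPant pools 3, 4, 7 and 9, against 2.87, 2.74, 3.33 and 2.54 CPM in control pools 1, 2, 4 and 5. This was the largest rise of a called channel gene, with a log2 fold change of 0.60 (edgeR adjusted p = 0.0061), and CRISPant pool 4 was just above control pool 4. *kcnk9.L* (TASK-3) rose with 0.31, a call lost without control pool 5 (edgeR adjusted p = 0.070). *kcnk15.S* fell with -0.60, at 2.45 to 3.08 CPM in CRISPant pools and 3.76 to 4.53 CPM in control pools, without overlap. The mechanosensitive *kcnk2.L* (TREK-1) fell with -0.40, a call lost without CRISPant pool 7 or 9 (edgeR adjusted p up to 0.059). The TREK-2 gene *kcnk10.L* was at 24.1 to 29.3 CPM in CRISPant pools and 22.7 to 27.9 CPM in control pools and did not pass.

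Both homeologues were tested in 56 channel genes. Both fell in 7 of these and both rose in 1, *kcnb2*. Only the L homeologue was called in 9, only the S homeologue in 11, and neither in 28, and no pair was called in opposite directions. The same counts were not made over all 7431 pairs, so they are not shown to be particular to channel genes. A call in one homeologue and not in the other does not show that they differ, so limma was run on the log2 CPM difference of L and S. It differed between the groups in 9 of the 56 channel pairs, which is 16.1%, against 29.8% of all 7431 pairs tested.

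The smallest p was for *kcnj10*, where the log2 ratio of L to S was 0.56 in CRISPants and 0.06 in controls (difference 0.51 ± 0.12 SE, limma adjusted p = 0.0017). *kcnk13*, for the two-pore channel THIK-1, had homeologues with fold changes of opposite sign, neither called. *kcnk13.L* was at 2.80, 2.05, 1.72 and 1.90 CPM in CRISPant pools 3, 4, 7 and 9, against 3.41, 3.29, 2.83 and 2.21 CPM in control pools 1, 2, 4 and 5 (log2 fold change -0.49, edgeR adjusted p = 0.051). *kcnk13.S* was at 5.34, 4.66, 3.75 and 4.72 CPM in CRISPant pools and at 3.64, 3.57, 3.78 and 3.67 CPM in control pools (0.33, edgeR adjusted p = 0.070). *kcnk13.L* passed with the CPM filter and without CRISPant pool 3 or control pool 5 (edgeR adjusted p down to 0.020), and *kcnk13.S* passed without CRISPant pool 7 (edgeR adjusted p = 0.028). Their log2 ratio was -1.10 in CRISPants and -0.33 in controls (limma adjusted p = 0.0071), and with the counts of both summed the log2 fold change was 0.02. L rose relative to S in *kcnab1* and *kcnmb4*, with differences of 0.52 and 0.67, and fell relative to S in *kcnj21*, with -0.64. Smaller differences were found in *kcnn3*, *kcnc2* and *kcnip2* (-0.30, -0.29 and 0.28). In *kcnd3* the ratio was not shown to differ (limma adjusted p = 0.14).

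**Figure D4:**
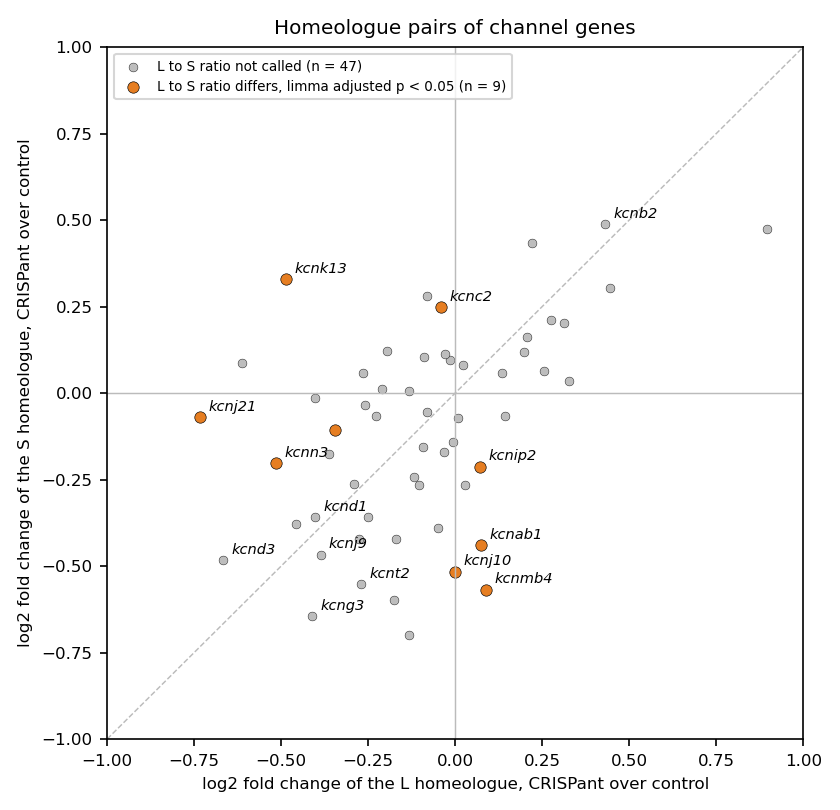
Log2 fold change (CRISPant over control) of the S homeologue against that of the L homeologue in 56 channel genes, where the dashed line marks equal changes. The 9 orange pairs are those with an L to S ratio that passed the limma test, with *kcnj10* and *kcnk13* far from the line and *kcnd1*, *kcnb2* and *kcnj9* near it.

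A list of channel genes linked to human epilepsy was drawn up from general knowledge and is not a complete set. Of its genes, 32 homeologues were in the table and tested, of which 6 were lower, 1 was higher and 25 did not pass. The lower genes included *kcnma1.L*, *kcnt1.L*, *kcnt1.S*, *kcnt2.S* and *kcnj10.S*. The higher gene was *kcnc2.S*, whose call was lost in DESeq2 and kept in only 2 of the 8 fits that left out a pool. Together 21.9% were called, against 42.4% of all genes tested.

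Of 16 partner genes tested, whose proteins work with these channels, 6 fell and 1 rose, which is 43.8% called, against 42.4% of all genes. *abcc9.L*, for the sulphonylurea receptor SUR2 that pairs with Kir6 in ATP-sensitive channels, was at 34.4, 35.4, 34.9 and 30.2 CPM in CRISPant pools 3, 4, 7 and 9, against 61.9, 63.8, 64.8 and 64.4 CPM in control pools 1, 2, 4 and 5. The pools of each group were close together and the groups far apart (log2 fold change -0.92 ± 0.06 SE, edgeR adjusted p = 5.0e-10). Its pore partners *kcnj8* and *kcnj11* did not pass in any homeologue, and *kcnj8.L* had 0.43 ± 0.30 CPM in CRISPants and 0.63 ± 0.18 CPM in controls (SD, n = 4 each). *abcc9* also marks mural cells of vessels. Of 7 mural marker genes tested, *abcc9* included, 2 fell and 2 rose, among them *acta2.S* at 1.99. These calls made up 57.1% of the set, against 42.4% of all genes. Summed over the other 6 mural genes, without *abcc9.L*, the level was 91.4 to 113 CPM in CRISPant pools and 92.4 to 106 CPM in control pools, so the groups overlapped.

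Of the partners of Kv1 channels on axons, *cntnap2.L* fell with -0.32 and *adam22.L* with -0.30, while *cntnap2.S* (0.09), *lgi1.L* (-0.10) and *lgi1.S* (-0.0078) did not pass. The Kv2 partner *amigo1.S* fell with -0.20 (edgeR adjusted p = 0.020, -0.27 to -0.16 when a pool was left out). The HCN partner *pex5l.S* fell with -0.44, and *pex5l.L* (0.02) did not pass. In both *amigo1.S* and *pex5l.S* the pools of the groups overlapped. The anchoring protein gene *akap9* was called in both directions, with -0.39 for S and 0.19 for L (edgeR adjusted p = 0.038 for L). The rise of *akap9.L* leaned on CRISPant pool 7, at 179 CPM. The other CRISPant pools were at 141.8 to 143.9 CPM, just above the highest control pool at 141.6 CPM. Its log2 fold change ran from 0.099 to 0.22 when a pool was left out. Of 19 genes tested that keep the K+ and Cl- gradients, 5 fell and 1 rose, which is 31.6% called, against 42.4% of all genes. The sodium pump β subunit *atp1b3* fell in both homeologues, with log2 fold changes of -0.22 for L and -0.20 for S. The K+ and Cl- cotransporter gene *slc12a5.S* (KCC2) rose with 0.18.

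Markers of other cell types gave the following values beside the channel results. Of 11 neuronal marker genes tested, 5 fell and 1 rose, which is 54.5% called, against 42.4% of all genes. Log2 fold changes ran from -1.27 to 0.33 (median -0.11), 8 were negative, and 1 gene fell by more than 2-fold. The sum of the 11 was 2884 to 3258 CPM in CRISPant pools and 3013 to 3158 CPM in control pools, so the groups overlapped in the sum. Of 6 skeletal muscle genes tested, 2 rose and none fell, with a sum of 4.602 to 7.41 CPM in CRISPant pools and 3.24 to 3.85 CPM in control pools, and *acta1* had 14 counts for L and 55 for S over the 8 pools. Of 10 endothelial genes 3 fell and 1 rose, and of 8 photoreceptor genes 2 rose and none fell. Called genes made up 33.3% of the muscle, 40% of the endothelial and 25% of the photoreceptor set, against 42.4% of all genes. Oligodendrocyte, microglial and choroid plexus markers had 1 call lower each (of 8, 3 and 5 genes), with 1 oligodendrocyte gene also higher. Their called shares were 25%, 33.3% and 20%, also under the 42.4% of all genes. None of 4 erythrocyte or 7 pituitary genes passed. The part of these cell types in the channel results was not tested.

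The 27 channel genes with too few reads to test had 0 to 78 counts over the 8 pools. They include the epithelial rectifier *kcnj1*, the photoreceptor subunit *kcnv2* and *kcnj16*, which pairs with *kcnj10* in glia of mammals. *kcna10.S* and *kcne2.L* had 0 counts. Some low genes leaned to 1 group in their raw counts, and these were picked after their values were seen. *kcnj1.S* had 0, 0, 2 and 1 counts in CRISPant pools 3, 4, 7 and 9, against 10, 6, 3 and 5 counts in control pools 1, 2, 4 and 5. *kcnj15.S* had 2, 8, 12 and 7 counts in CRISPant pools and 0, 0, 2 and 1 counts in control pools. Both are known here from few reads and failed the filter on low counts.

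Some called genes share their place with another gene. Of 97 tested channel genes with a position in the RefSeq annotation, 17 overlapped another annotated gene. Of the 30 called genes among these, 8 did, *kcnd3.L* and *kcnip1.L* included. The genes that overlapped called ones had 0 to 82 counts over the 8 pools, with 8 for the gene at *kcnd3.L* and 1 for *kcnmb1.L* at *kcnip1.L*. With the counts of homeologues summed, 33 of the 39 called genes kept their call. These are not 33 separate checks, because homeologues of a pair that were both called share 1 summed test. For a gene with no tested partner homeologue the sum was nearly the gene itself, as in *kcnma1.L* (log2 fold change -0.26 alone and summed). Log2 fold changes were -0.66 for *kcnd3*, -0.38 for *kcnd1*, 0.47 for *kcnb2*, -0.43 for *kcnj9* and -0.49 for *kcnt2*, while *kcnj10* had -0.23 (edgeR adjusted p = 0.019), *kcnn3* -0.29 and *kcnab1* -0.26. The calls of *kcnmb4.S* (summed -0.21, edgeR adjusted p = 0.24), *kcnk2.L* (-0.24, 0.056), *kcnj21.L* (-0.089, 0.32), *kcnc2.S* (0.033, 0.75), *kcnf1.L* (-0.15, 0.088) and *kcnip2.S* (-0.10, 0.22) were lost.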

How the data were processed

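Whole brains of NF stage 47 tadpoles were sequenced as 8 pools of 4 brains, 4 per group. The authors mapped 100 bp single reads of stranded mRNA libraries to XENLA_10.1 using DRAGEN, and FeatureCounts gave the deposited table of raw counts per gene, which carries no normalisation. Strand and multi-mapping settings are not given in the sources used here, so reads of L and S homeologues may be split imperfectly. Columns were matched to samples through the library names in the labels.

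In R 4.3.3, edgeR 4.0.16 was run on the whole table: filterByExpr (minimum count 10), TMM factors, then a robust quasi-likelihood fit whose single term was the condition. Adjusted p-values are Benjamini-Hochberg over all genes tested, and a gene was called (rose or fell) when this was under 0.05. Standard errors and 95% intervals follow from each log2 fold change and its F value. Ratios of L to S were tested with limma 3.58.1 on log2 CPM (prior count 2). Every pair of replicates differed by more than sampling noise, and all pools came from 1 sibship, so p-values reflect variation among sibling pools only.

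Channel groups followed gene symbols. Named genes were *neurod2*, members past 2-fold, the 4 with the smallest p and the 2 with the most reads of each group, their homeologues, up to 6 pairs with a changed ratio (by p), and the 3 partner genes of each list with the smallest p. Some genes are not reported here by name. Other called genes and those set beside them were chosen after their values were seen. Members and lists were chosen with earlier results of these data known. Positions were taken from RefSeq (v10.1 assembly) by symbol, which matched 97 of 133 tested members. Alternatives were DESeq2 size factors, DESeq2 1.42.0, omitting the filter, requiring 1 CPM or more in 4 or more pools, summed homeologues, a prior count of 0.5, and each pool left out. Sequences were not used here.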

Additional observations from a re-analysis of the deposited data

Results flagged for a closer look

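Groups of 4 pools were looked at in genes taken by the naming rule or added after their values were seen. Of 154 such groups, 7 held a pool far from the other 3, where chance gives about 1 in 20. Of the genes below, *adam22.L* and *akap9.L* were among those added. CRISPant pool 4 was high in *adam22.L*, at 139 CPM with the next pool at 124 CPM. CRISPant pool 7 was high in *akap9.L*, at 179 CPM with the next pool at 144 CPM. CRISPant pool 9 was low in *kcnd3.S*, at 4.54 CPM with the next pool at 5.17 CPM. Control pool 5 was low in *kcnb2.L*, at 10.5 CPM with the next pool at 11.6 CPM, and low in *kcnip1.L*, at 42.7 CPM with the next pool at 49.0 CPM. Control pool 1 was low in *kcng3.L*, at 6.47 CPM with the next pool at 9.18 CPM, and control pool 2 was high in *kcnn1.S*, at 19.3 CPM with the next pool at 16.7 CPM.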

How the results depend on the processing

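Of 39 called channel genes, 29 kept their call in all 8 fits that left out a pool, and 39, 37, 37 and 39 kept it with DESeq2 size factors, DESeq2, no filter and the CPM filter. Leaving out a pool, 27 to 35 channel genes were lower and 5 to 8 higher, 1 to 2 KCNQ genes lower, 1 to 3 K2P genes lower and 1 to 3 K2P genes higher. Lower genes by more than 2-fold numbered 0 to 1 (*kcnj8.L* without CRISPant pool 3). With no filter, *kcnj15.S* was the 1 channel gene (and 1 Kir gene) past 2-fold upwards, and 3 passed it downwards, *kcnj1.S*, *kcnj20.S* and *kcns1.L*, all with few reads and not tested otherwise. Channel pairs with a changed L to S ratio numbered 7 to 11 when a pool was left out.

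Of the genes taken by the naming rule or added after their values were seen, signs turned only in uncalled ones, apart from *akap9.L*. The *dpp6* and *dpp10* genes and *akap9.L* were among those added. With homeologues summed, log2 fold changes were -0.061 for *akap9*, -0.016 for *dpp6*, -0.26 for *kcnab1*, 0.11 for *kcnh2*, -0.024 for *kcnk10*, 0.021 for *kcnk13*, -0.21 for *kcnmb4* and -0.12 for *kcnq5*, each against the sign of 1 homeologue. Outside this set, further uncalled homeologues also turned when summed. Among them were those of *kcnj3* (0.020), *kcnq3* (-0.0055), *kcnip2* (-0.10), *kcnf1* (-0.15) and *kcnc2* (0.033). *kcnj3.L* ran from -0.071 to 0.032 when a pool was left out. With no filter *kcnj10.L* was at 0.0025. Leaving out a pool gave -0.047 to 0.049 for *dpp10.L*, -0.0099 to 0.063 for *dpp6.L*, -0.0034 to 0.13 for *kcnab1.L*, -0.078 to 0.076 for *kcnj10.L*, -0.032 to 0.072 for *kcnk10.L*, -0.069 to 0.072 for *kcnk2.S*, -0.017 to 0.19 for *kcnmb4.L* and -0.084 to 0.11 for *kcnq5.S*. No paired analysis was run, because the labels do not say that any CRISPant pool pairs with a control pool. The groups share only 1 replicate number. Of 70 channel genes under a mean of 10 CPM 11 were called, against 28 of 63 above it. Over all genes tested 42.4% were called, and these were not split at 10 CPM. The part of depth in the channel counts was not tested.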
